A study of Mus musculus with 56 samples.

Results

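Single colon tumor cells with a high level of Sprr2a3, a small proline-rich protein gene, were set against cells in which it was low or listed at 0. Cells with Sprr2a3 at 100 TPM (transcript abundance scaled to a fixed sum in each library) or more made the high group, which held 29 of 50 cells, and cells below 10 TPM made the low group, which held 18. The other 3 cells, at 13.6, 24.1 and 73.7 TPM, entered neither group. The 3 high cells nearest the threshold were at 185, 239 and 244 TPM, and the 3 highest low cells were at 8.06, 2.95 and 2.53 TPM. The members were thus chosen by their measured Sprr2a3 level, and the difference in Sprr2a3 itself is the choice and not a result.

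All cells in both groups came from 1 male ApcMin/+ mouse, which carries a truncating allele of the Wnt pathway gene Apc and forms intestinal tumors. It drank 2% dextran sulfate sodium, an agent that injures the lining of the colon, during 5 days starting at 10 weeks of age, and its tumors were taken at 12 weeks. The cells of 3 tumors were mixed after digestion, so the tumor of origin of a cell is not known here, and no untreated or tumor-free tissue was analysed here. Cells negative for DAPI, Cd31 and Cd45 and positive for Epcam and Cd24 were sorted singly, made into cDNA by the Bead-seq method, and sequenced where a PCR of 32 cycles had found Lgr5, a receptor gene of intestinal stem cells. The series title is about the transcription factor PROX1 in quiescent, drug-resistant stem cells of colon cancer, and the labels name no groups of cells. With 1 mouse, the cells are not replicates of a condition: all values below describe these cells, with no test.

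Small proline-rich proteins are cross-linked by transglutaminases into the cornified envelope of stratified epithelia. Genes of the Sprr2 subfamily are also transcribed in gut epithelium after bacterial contact or injury. Reg3b and Reg3g, in contrast, encode C-type lectins secreted by gut epithelium, of which Reg3g kills Gram-positive bacteria.

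The 56 libraries gave 50 cells, because 6 pairs of libraries had Pearson's r of 0.957 to 0.992, with the next highest r at 0.782, and each pair was averaged. All 6 averaged cells were in the high group. Depth is unknown, because TPM keep no read counts. High cells had a median of 6010 genes at 1 TPM or more (3151 to 7234) and low cells 5805 (1316 to 6477). The low cell with 1316 genes stood apart, with 85.1% of its TPM on the pseudogene Gm10925. In the other 17 low cells and in the 29 high cells this entry took smaller shares, with medians of 8.55% over all low cells and 9.91% over high cells. Counts and list medians are therefore also given without that cell.

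The sort and PCR markers were checked in both groups. Epcam, the epithelial adhesion protein gene, was at 208 to 769 TPM in high cells and 14.3 to 721 in low cells, and Cd24a was at 144 to 1540 and 1.96 to 1310 TPM. The CD45 gene Ptprc and the CD31 gene Pecam1 reached 1 TPM in 0 of 47 cells. Lgr5 reached 1 TPM in 25 of 29 high and 10 of 18 low cells, with medians of 3.31 and 1.2 TPM. The cells thus carried the sort markers, with Lgr5 at low levels in both groups.

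The library indexes were not spread evenly over the groups. Of the 8 libraries with the i7 index N705, 6 were low cells, whereas no low cell carried N709 and 1 carried N708. Cells with i7 indexes N704 to N707 were 15 high and 14 low, and cells with N708 to N710 were 14 high and 4 low, which included the low cell with 1316 genes. Differences were therefore repeated within these sets, and the part of the index in any result was not tested.

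**Figure D1:**
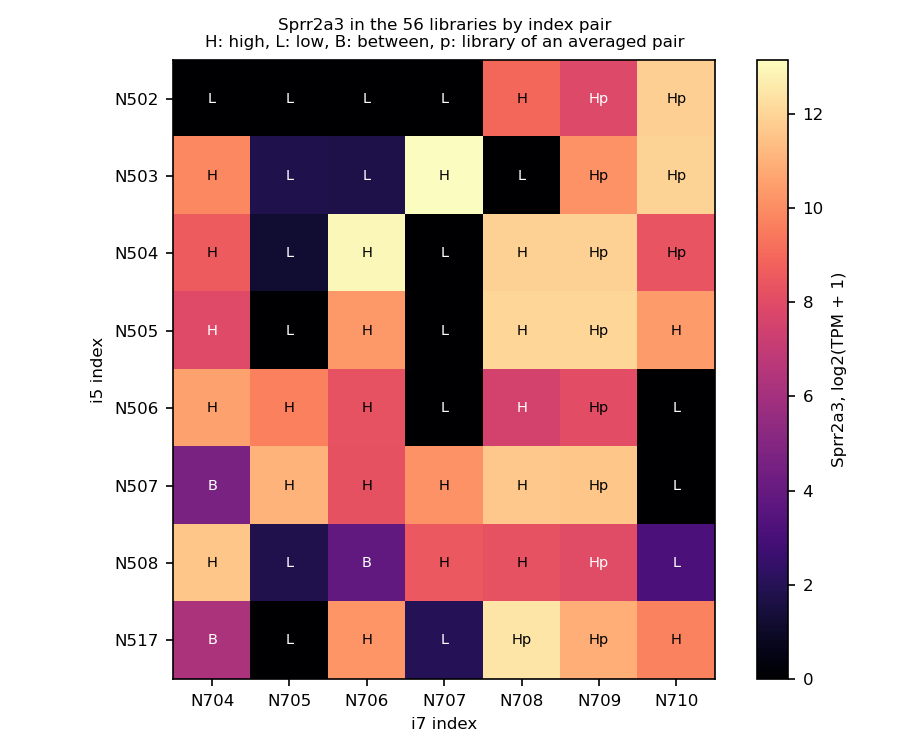
Sprr2a3 in each of the 56 libraries, as log2(TPM + 1) on the color scale, by i7 index (columns) and i5 index (rows), with the group of the cell written in the square. Low cells filled 4 of the 7 squares of the N502 row and 6 of the 8 squares of the N705 column, and no square of the N709 column.

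The promoters of the secreted lectins and of the Sprr2 genes that led the comparison are shown because the members were high together in many cells. The windows are the 250 bases before the start of transcription in RefSeq on GRCm38.p6, read in the direction of the gene, at chr3:92285054-92285303 (plus), chr3:92316455-92316704 (plus), chr6:78370635-78370884 (plus) and chr6:78468875-78469124 (minus). Capitals mark matches, searched on both strands. The AP-1 motif was spelled TGANTCA. The STAT motif was spelled TTCNNNGAA. The TATA motif was spelled TATAAA.
Sprr2a3 promoter: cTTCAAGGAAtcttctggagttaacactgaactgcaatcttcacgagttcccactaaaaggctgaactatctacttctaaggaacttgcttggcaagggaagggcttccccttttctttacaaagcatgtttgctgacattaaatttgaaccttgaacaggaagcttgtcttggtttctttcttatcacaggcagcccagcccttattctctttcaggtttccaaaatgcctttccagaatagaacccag
Sprr2b promoter: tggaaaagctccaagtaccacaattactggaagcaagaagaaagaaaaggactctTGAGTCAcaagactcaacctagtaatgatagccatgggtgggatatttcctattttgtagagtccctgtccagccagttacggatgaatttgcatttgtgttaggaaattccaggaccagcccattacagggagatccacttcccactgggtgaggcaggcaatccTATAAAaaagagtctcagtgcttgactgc
Reg3b promoter: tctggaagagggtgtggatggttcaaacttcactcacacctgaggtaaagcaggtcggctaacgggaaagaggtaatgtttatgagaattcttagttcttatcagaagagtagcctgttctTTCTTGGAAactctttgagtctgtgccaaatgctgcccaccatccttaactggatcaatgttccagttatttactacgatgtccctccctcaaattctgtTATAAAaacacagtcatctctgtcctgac
Reg3g promoter: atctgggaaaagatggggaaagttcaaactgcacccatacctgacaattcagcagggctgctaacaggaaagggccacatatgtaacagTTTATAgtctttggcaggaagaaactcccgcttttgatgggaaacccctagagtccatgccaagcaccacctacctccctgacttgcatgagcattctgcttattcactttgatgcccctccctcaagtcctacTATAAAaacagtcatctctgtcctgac
The Sprr2b window held an AP-1 match that begins 195 bases before the start and a TATA match at 29 bases. The Reg3b window held a STAT match at 129 bases and a TATA match at 29 bases, and the Reg3g window held TATA matches at 161 and 27 bases. In the Sprr2a3 window the STAT match lay 249 bases before the start. Windows of other genes were searched as well. Those of Sprr2a1, Sprr2a2, Lgals4, Ceacam1, Tspan1, Crip1 and Ripk3 held no match to any of these motifs, and that of Rnf186 held an AP-1 match. Of genes that were lower in high cells, Gdf11, Il18 and Vim held a TATA match each, and Mt3 and Sp5 held no match. The matches were thus not shared by the genes of either direction. Over 32851 windows of this length, 6.75% held the AP-1 letters, 7.02% the STAT letters and 12.4% the TATA letters, so a match is a description and not a site.

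The windows of Sprr2a3 and Sprr2a1 shared a run of 222 identical bases, whereas the longest run shared by Sprr2a3 and Sprr2b was 8 bases and that of Reg3b and Reg3g was 20. The transcripts were alike as well: 61.1% of the pieces of 50 bases of Sprr2a3 also occurred in Sprr2a1 and 58.8% in Sprr2a2, against 1.59% in Sprr2b. In the other direction, 14.1% of the pieces of Sprr2b occurred in Sprr2a1, 7.55% in Sprr2a2 and 6.29% in Sprr2a3. The values of Sprr2a3, Sprr2a1 and Sprr2a2 therefore cannot be fully told apart, and Sprr2a1 is not independent of the rule. Part of the lower Sprr2b level may also come from shared reads, which was not tested. The 3 listed genes lie on chromosome 3 (GRCm38, plus strand), with Sprr2a1 at 92215799 to 92221911, Sprr2a3 at 92285417 to 92291405 and Sprr2b at 92316620 to 92318085.

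Sprr2a3 was at 185 to 9019 TPM in high cells, with a median of 1193 TPM, and 16 of the 29 were at 1000 TPM or more. In low cells it was listed at 0 in 12 of 18. Sprr2a1 was at 7.46, 91.1 and 653 TPM (lowest, median and highest) in high cells and was listed at 0 in all 18 low cells. Sprr2b was at 0.58, 18.4 and 447 TPM in high cells and at 0, 0 and 2.31 TPM in low cells. Sprr2b thus stood above the highest low cell in 28 of 29 high cells, and its groups overlapped in 1 cell. The difference in mean log2(TPM + 1), high minus low, was 4.36 for Sprr2b (4.46 ± 1.71 against 0.10 ± 0.41, SD over cells, n = 29 and 18). Of the 18 small proline-rich and cornified envelope genes listed, these 3 were the members that reached 1 TPM in 20% of cells. Sprr2a2 reached 1 TPM in 1 high and 0 low cells, Sprr1a in 3 and 1, and the envelope genes Lor and Ivl in 0 of 47, as did the squamous markers Krt5, Trp63 and Krt13.

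**Figure D2:**
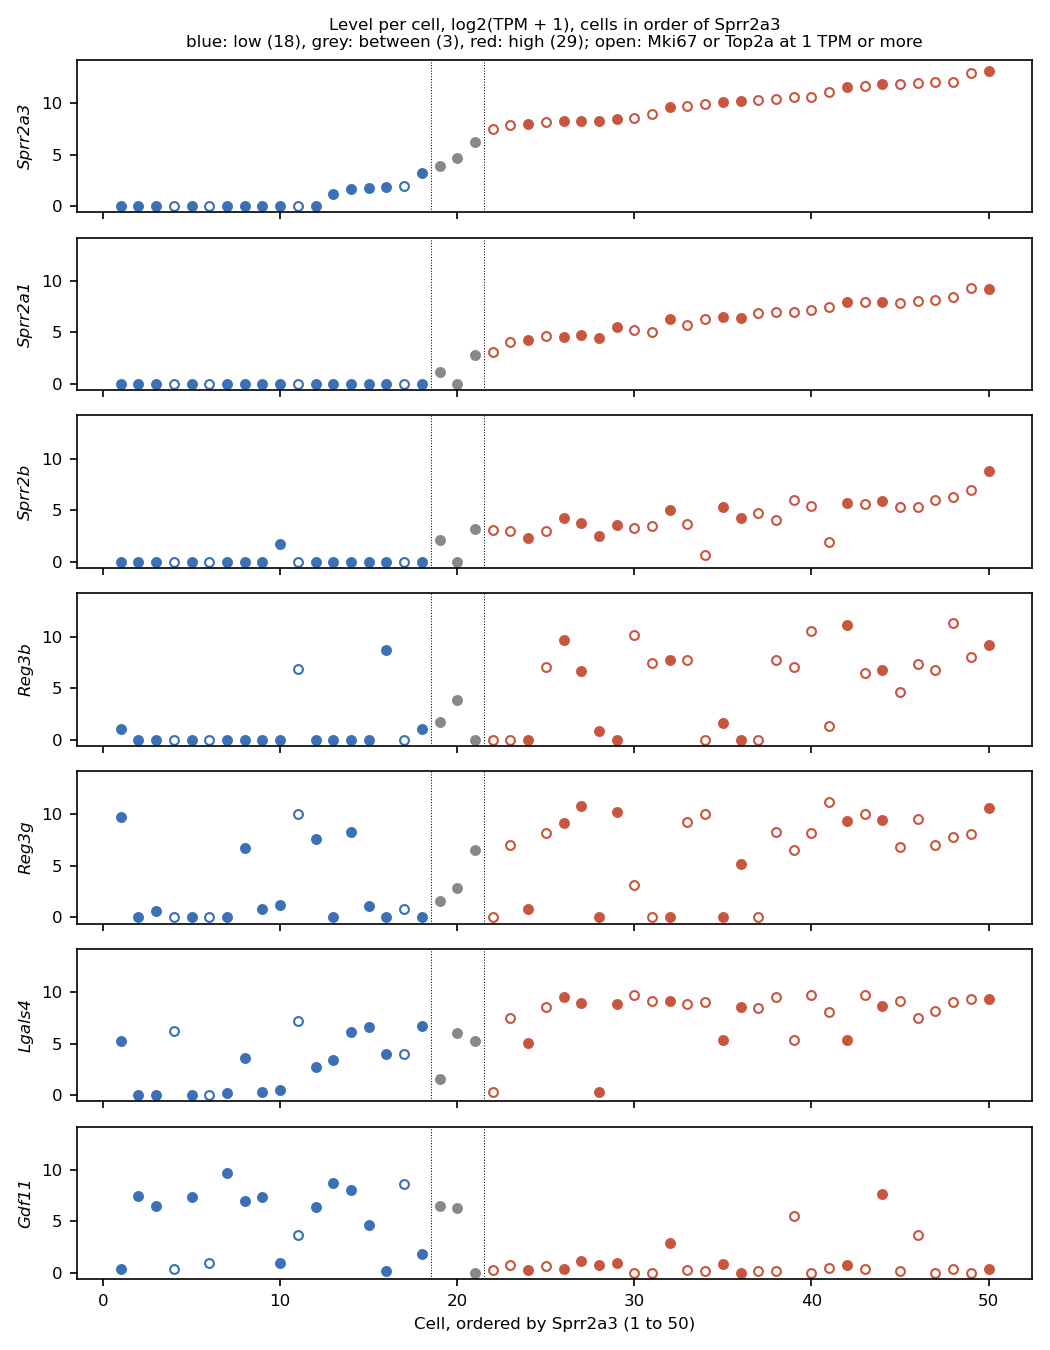
Level of 7 genes as log2(TPM + 1) in each of the 50 cells, ordered by Sprr2a3, with low cells in blue, the 3 cells between in grey and high cells in red; open points have Mki67 or Top2a at 1 TPM or more. Sprr2a1 and Sprr2b follow the order of Sprr2a3, Reg3b and Reg3g are high in many high cells and in a few low cells (up to 421 and 1073 TPM), and Gdf11 is at 10 TPM or more in 12 of 18 low and 3 of 29 high cells.

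A gene was compared if 20% of cells had it at 1 TPM or more, which 9166 did. Of these, 128 genes (1.4%), Sprr2a3 included, were at least 2 higher in the high group on the scale of mean log2(TPM + 1), and 31 (0.338%) were at least 2 lower. Of all genes, 58% were above 0 and 42% below 0, and the median difference was 0.11. With the i7 index as a block, 203 (2.21%) were at least 2 higher and 52 (0.567%) at least 2 lower. Without the low cell with 1316 genes, the counts were 109 and 53, the median was 0.00, and 4575 of the 9166 genes were below 0. The groups did not overlap for 2 genes, Sprr2a3 and Sprr2a1 (0.0218%). Because the groups were made from the same cells, these counts describe the contrast and support nothing further. All 128 higher genes were above 0 in both sets of i7 indexes, as were 3334 of all 9166 genes. Of the 31 lower genes, 20 were below 0 in both, as were 1362 of all genes. The median difference of all genes was -0.05 in cells with i7 indexes N704 to N707 and 0.64 in cells with N708 to N710. In the latter it was 0.14 without the low cell with 1316 genes.

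Cells with transcripts of dividing cells were more frequent in the high group. Mki67 or Top2a, genes of a proliferation antigen and of a DNA topoisomerase, reached 1 TPM in 18 of 29 high cells (62.1%, exact Clopper-Pearson 95% interval 42.3% to 79.3%) and in 4 of 18 low cells (22.2%, 6.41% to 47.6%). The intervals cover counting error only. The 11 high and 14 low cells below 1 TPM for both genes are called non-cycling here. The name rests on Mki67 and Top2a alone, and some of these cells may be replicating. The mean log2(TPM + 1) of the 22 S phase genes listed reached 4.34 in 1 such high cell. Among the non-cycling cells, 111 genes (1.21%) were at least 2 higher and 97 (1.06%) at least 2 lower. There 51.9% of genes were above and 48% below 0. Without the low cell with 1316 genes, the counts of higher and lower genes were 86 and 166, with a median of all genes of -0.11. The 2 sets shared 52 higher genes, which are 40.6% of the 128 and 46.8% of the 111, and 22 lower genes, which are 71.0% of the 31 and 22.7% of the 97. The non-cycling cells are part of all cells, so the sharing is partly built in.

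**Figure D3:**
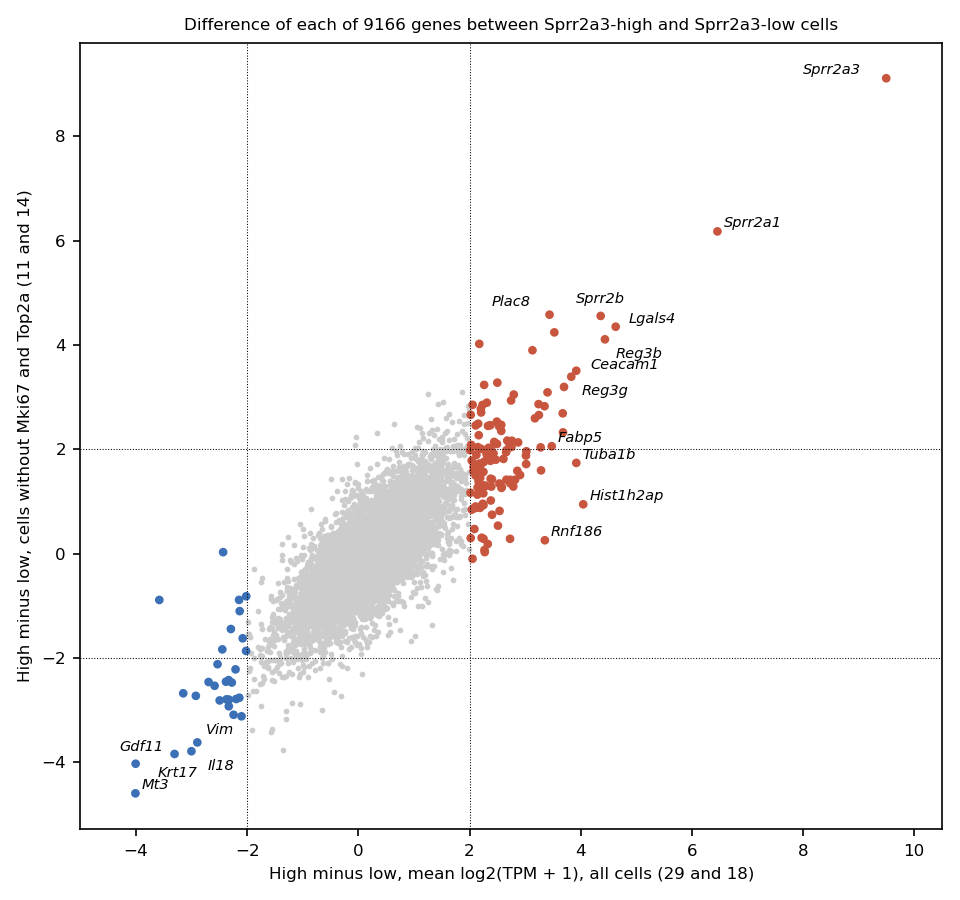
Difference of each of the 9166 genes in mean log2(TPM + 1), high minus low, in all cells (x axis, 29 and 18 cells) and in non-cycling cells (y axis, 11 and 14 cells), with genes past 2 in all cells in red (128) and blue (31). Lgals4, Reg3b and Plac8 lie past 2 on both axes, whereas Hist1h2ap (4.05 and 0.95) and Rnf186 (3.35 and 0.26) lie past 2 on the x axis only.

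Among secreted defence genes, the lectins Reg3b and Reg3g (both on chromosome 6) were high in many but not all high cells. Reg3b was at 0, 110 and 2591 TPM in high cells and at 0, 0 and 421 TPM in low cells. Reg3g was at 0, 279 and 2401 TPM in high cells and at 0, 0.605 and 1073 TPM in low cells. The groups overlapped for both genes, since 7 high cells were listed at 0 for Reg3b and 1 low cell was above 1000 TPM for Reg3g. The differences were 4.44 for Reg3b (5.42 ± 4.0 against 0.98 ± 2.52) and 3.83 for Reg3g (6.44 ± 4.01 against 2.61 ± 3.84), and 4.11 and 3.39 in non-cycling cells. Both lectins reached 10 TPM in 16 of 29 high and 1 of 18 low cells, and at least 1 of them did in 24 (82.8%, 64.2% to 94.2%) and 6 (33.3%, 13.3% to 59.0%).

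The wider list of Reg lectins and antimicrobial defence had 10 of 22 members past the filter, with 4 at least 2 higher and a median of 1.41 beside 0.11 for all genes. That median was 0.53 in cells with i5 indexes N506 to N517, 0.53 in i7 N708 to N710 without the low cell with 1316 genes, and 0 when group medians replaced means. The summed TPM of the 22 genes was higher in low cells at the median, 4536 against 3489 TPM. Wfdc2, which encodes a secreted whey acidic protein domain protein, differed by 2.40. Duoxa2, the maturation factor of the hydrogen peroxide-forming oxidase Duox2, reached 1 TPM in 11 of 29 high and 0 of 18 low cells and differed by 2.80, while Duox2 itself reached 1 TPM in 9 and 1. Lypd8, which restrains flagellated bacteria at the colon surface, reached 1 TPM in 11 and 1 cells. Other defence genes did not follow. The phospholipase gene Pla2g2a differed by -0.10, the peptidoglycan receptor gene Pglyrp1 by -0.89 and the siderophore-binding lipocalin Lcn2 by -0.76. Lcn2 had a median of 194 TPM in high and 317 TPM in low cells.

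The listed response genes of STAT3 and NF-kB, signalling factors of inflamed epithelium, were mostly below 0 in all cells. Among all genes, 42% were below 0 and the median was 0.11. Of 10 STAT3 response genes past the filter, 9 were below 0 (median -0.48), with Pim1, a kinase gene, at -1.99 and Stat3 at -0.84. This list includes Stat3 itself, while Reg3b (4.44) and Reg3g (3.83) were counted in the defence list and not here. It therefore does not stand for STAT3 activity as a whole. Of 18 NF-kB response genes and chemokines, 13 were below 0 (median -0.48, and -0.14 in non-cycling cells). The median was -0.04 with the i7 index as a block and 0.12 in cells with i7 N708 to N710. It was -0.60 in the latter without the low cell with 1316 genes. In these settings the median of all genes was 0.14, 0.64 and 0.14, in this order. Tnfaip3, which encodes the NF-kB inhibitor A20, was at 0, 4.77 and 85.2 TPM in high cells and at 0, 62.5 and 183 TPM in low cells, and differed by -2.45. The neutrophil chemokine gene Cxcl1 differed by -0.07 in all cells and by 2.09 in non-cycling cells.

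Lgals4 and Ceacam1, genes of surface proteins of the gut epithelium, were among the genes with the largest differences. Lgals4, the gene of the galactoside-binding galectin-4 (chromosome 7, 28833854 to 28841708), was at 0.24, 448 and 860 TPM in high cells and at 0, 10.4 and 142 TPM in low cells. It stood above the highest low cell in 23 of 29 high cells and differed by 4.63 (7.79 ± 2.49 against 3.16 ± 2.75), and by 4.35 in non-cycling cells. Ceacam1, an adhesion molecule gene of the carcinoembryonic antigen family (chromosome 7, 25461707 to 25477603), was at 0, 36.9 and 364 TPM in high cells and at 0, 0 and 34.5 TPM in low cells. It differed by 3.92 and by 3.51 in non-cycling cells. Lgals4 and Ceacam1 were both at 10 TPM or more in 21 of 29 high cells (72.4%, 52.8% to 87.3%) and 2 of 18 low cells (11.1%, 1.38% to 34.7%).

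Further genes of membrane and surface proteins were higher in the high cells, and others were not. The tetraspanin gene Tspan1 differed by 3.70, with medians of 47 and 0.245 TPM. Plac8, which encodes a small cysteine-rich protein, reached 1 TPM in 26 of 29 high and 7 of 18 low cells and differed by 3.44, and by 4.58 in non-cycling cells, where all 11 high cells were at 46.2 TPM or more. The highest value of Plac8, 463 TPM, was nevertheless in a low cell. The transmembrane mucin gene Muc4 differed by 2.11, the gap junction gene Gjb1 by 3.25 and the regeneration marker Ly6a (Sca-1), at 1 TPM in 11 high and 1 low cell, by 2.06. Myo1a, the brush border myosin gene, was at 1 TPM in 20 of 29 high and 0 of 18 low cells (0, 4.50 and 53.9 against 0, 0 and 0.20 TPM) and differed by 2.44. The brush border list as a whole had a median of 0.32 with 10 of 12 members above 0, beside 0.11 and 58% for all genes. Villin (Vil1) differed by 0.87 and ezrin (Ezr) by 0.32. Of 13 tight junction genes past the filter, 9 were below 0, beside 42% of all genes. None of the 13 was at least 2 higher (median -0.35, and -0.52 without the low cell with 1316 genes). Among them the claudin gene Cldn23 differed by -2.28 and Cldn2 by 1.53. That median was 1.10 in cells with i7 N708 to N710, and -0.25 there without that cell, beside 0.64 and 0.14 for all genes.

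Markers of mature colonocytes and goblet cells were mostly at or near 0 in both groups, while Paneth cell genes were present in part of the cells. Of 15 colonocyte genes 5 passed the filter, with Car2, a carbonic anhydrase gene, at 1.35. The mature colonocyte genes Car4, Aqp8, Slc26a3 and Krt20 reached 1 TPM in 0 of 47 cells. In the goblet list, Agr2, a disulfide isomerase gene of mucus-secreting cells, differed by 2.22 (1.23 in non-cycling cells), whereas Muc2, Clca1 and Atoh1 reached 1 TPM in 0 of 47 cells. The summed level of the 14 goblet genes was 5.60 to 398 TPM in high and 0.15 to 415 TPM in low cells. The 12 Paneth and deep crypt secretory genes summed to 26.3 to 1458 TPM and 0.83 to 1526 TPM, largely from the matrix protease gene Mmp7. Trac, the T cell receptor alpha constant gene, differed by 3.29 and reached 1 TPM in 22 high and 5 low cells, although the T cell gene Cd3e reached 1 TPM in 0 of 47. The 14 immune genes summed to 0 to 156 TPM in high and 0 to 254 TPM in low cells. The part of other cell types in these results was not tested.

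Genes of several other functions were higher as well. Fabp5, a fatty acid-binding protein gene, was listed at 0 in all 18 low cells and was at 0, 15.7 and 239 TPM in high cells, with 17 of 29 at 1 TPM or more. Its difference was 3.48, and 2.06 in non-cycling cells. Fbp2, a fructose bisphosphatase gene, was at 1 TPM in 22 high and 0 low cells and differed by 2.68. Ckb, a creatine kinase gene, differed by 3.35, and the LIM domain genes Crip1 and Crip2 by 3.68 and 3.40. Ripk3, the kinase gene of necroptosis, was at 0, 96.0 and 250 TPM in high cells and at 0, 0.135 and 113 TPM in low cells, and differed by 3.68. Nlrp6, an inflammasome sensor gene of the colon epithelium, was at 1 TPM in 15 high and 1 low cell and differed by 2.73. These genes overlapped between the groups, and each was listed at 0 in 3 to 11 high cells.

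Rnf186, a ubiquitin ligase gene of gut epithelium, was followed as a marker of the high cells. It was at 0, 134 and 2724 TPM in high cells and at 0, 0.69 and 1147 TPM in low cells, and differed by 3.35. In non-cycling cells its medians were 2.42 and 1.36 TPM and the difference was 0.26, so the large difference was not seen among those 25 cells. Within the i7 sets it was 1.81 (N704 to N707) and 6.30 (N708 to N710). The groups also differed in the share of cycling cells, whose part in the result was not tested.

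**Figure D4:**
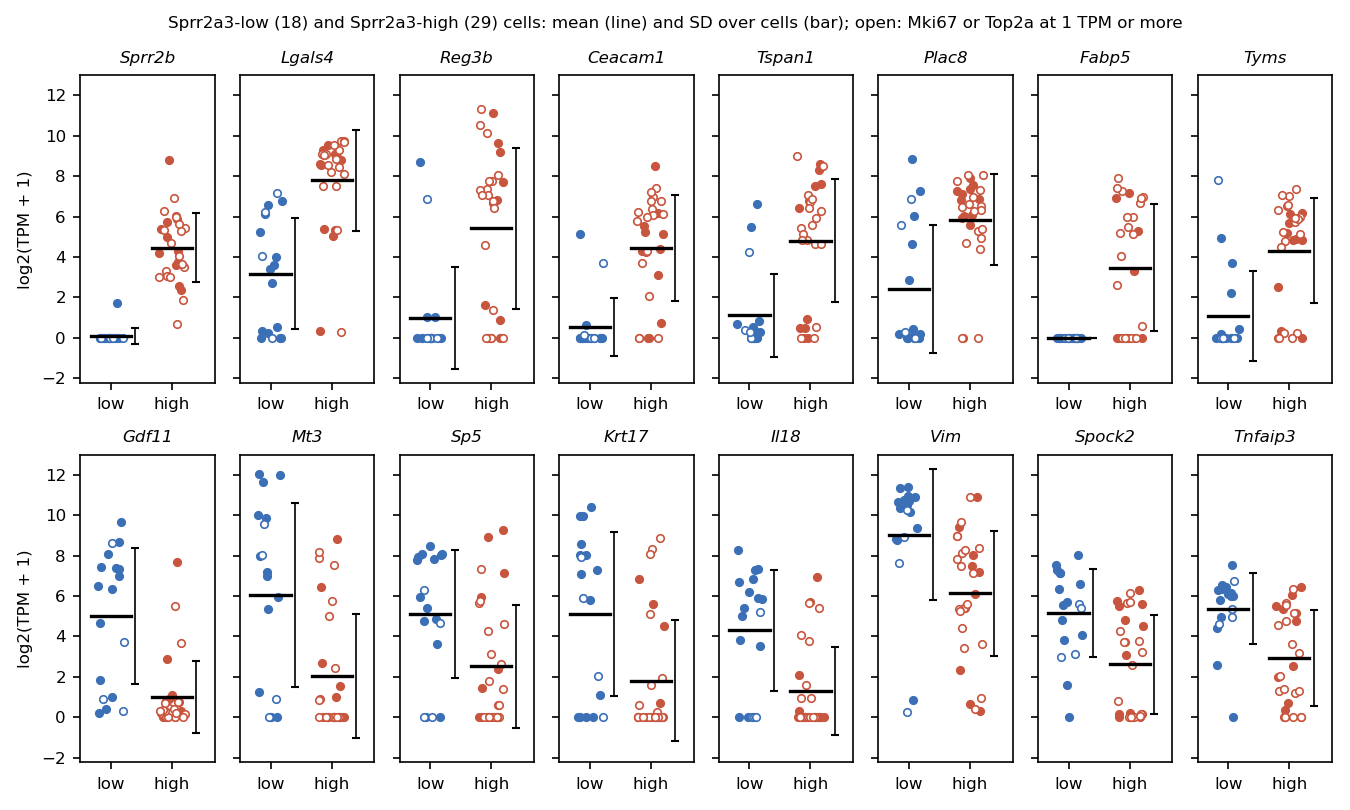
Level of 16 genes as log2(TPM + 1) in the 18 low and 29 high cells, with the mean (line), the SD over cells (bar) and open points for cells with Mki67 or Top2a at 1 TPM or more. Sprr2b, Lgals4 and Ceacam1 are high in most high cells, and Gdf11, Il18 and Vim are high in most low cells, and both groups share a range of values in these 6 panels.

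Cell cycle genes were higher in the high cells as a list, and in non-cycling cells the list of DNA replication had the higher median. All 22 G2/M genes past the filter were above 0 (median 1.58), beside 58% of all genes. Among them were Ube2c, a mitotic ubiquitin-conjugating enzyme gene, at 3.02, Cdc20 at 2.54 and Cenpa at 2.33. In non-cycling cells that median was 0.07. All 20 S phase genes were above 0 (median 1.38). In non-cycling cells 18 of 20 were (median 0.46), beside 51.9% of all genes there. Tyms, the thymidylate synthase gene, had a difference of 2.87 there (3.24 in all cells) and the replication helicase gene Mcm2 one of 2.17 (2.76). The selection of non-cycling cells used Mki67 and Top2a, so the lower G2/M median is partly fixed by it. Tuba1b, an alpha-tubulin gene, differed by 3.92 and 1.74, and the histone gene Hist1h2ap by 4.05 and 0.95. Values of histone and tubulin genes are uncertain, because near-identical copies can share reads.

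Energy metabolism and protein synthesis lists had smaller medians without the low cell with 1316 genes, when the median of all genes was 0.00. Of all genes, 58% were above 0 with all cells, and 4591 of 9166 without that cell. All 14 oxidative phosphorylation genes were above 0, with a median of 0.80 in all cells and 0.43 without that cell, when 14 of 14 stayed above 0. Atp5o, a subunit gene of ATP synthase, differed by 1.5 and Cycs, the cytochrome c gene, by 1.39. For cytosolic ribosomal proteins, 20 of 20 were above 0 with all cells (median 0.35) but 11 of 20 without that cell (median 0.05). Glutathione and drug handling genes had a median of 0.70 (0.44 without that cell), with the glutathione peroxidase gene Gpx2 at 1.8 and the aldehyde dehydrogenase gene Aldh1b1 at 2.09 (0.47 in non-cycling cells).

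**Figure D5:**
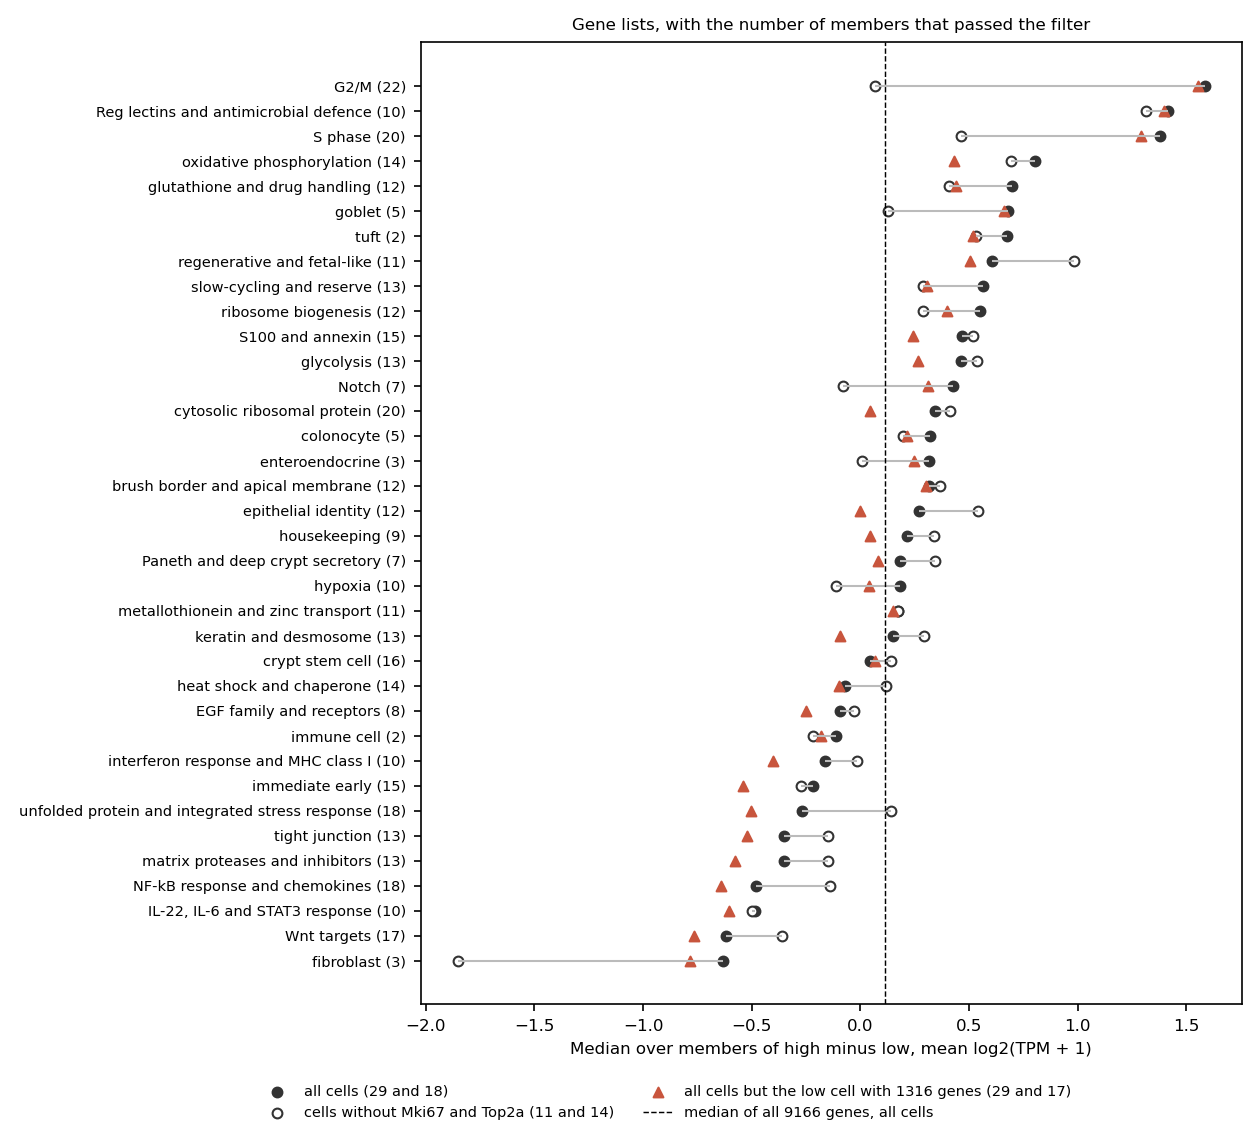
Median over the members of each gene list of the difference in mean log2(TPM + 1), high minus low, in all cells (filled), in non-cycling cells (open) and in all cells but the low cell with 1316 genes (triangles), with the number of members past the filter in brackets. The G2/M median falls from 1.58 to 0.07 in non-cycling cells, the Reg and antimicrobial median is 1.41 and 1.31, and the Wnt target median is -0.62 and -0.36.

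The genes that were lower in high cells were led by genes of a growth factor, a metallothionein, a keratin and a cytokine. Gdf11, a ligand gene of the TGF-beta family (chromosome 10, 128882295 to 128891718), was at 0, 0.27 and 203 TPM in high cells and at 0.17, 85.3 and 821 TPM in low cells. It reached 10 TPM in 3 of 29 high and 12 of 18 low cells, and 4 low cells lay above every high cell. Those 3 high cells, at 11.7, 43.9 and 203 TPM, were all averaged pairs of libraries. The difference was -4.01 (1.01 ± 1.77 against 5.01 ± 3.37), and -4.02 in non-cycling cells. Within the first i7 set (N704 to N707) it was -4.96, and within the second (N708 to N710) -1.75.

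Il18, the gene of an epithelial interleukin, was at 0, 0 and 122 TPM in high cells and at 0, 38.5 and 306 TPM in low cells, and differed by -3.00. Vim, the gene of the intermediate filament vimentin, was at 0.23, 142 and 1934 TPM in high cells and at 0.20, 1264 and 2735 TPM in low cells, and differed by -2.90. Low cells were thus mostly high for Vim, with 16 of 18 at 100 TPM or more against 15 of 29 high cells. Vim is also a fibroblast marker. The other fibroblast genes past the filter were also below 0, with Acta2, a smooth muscle actin gene, at -0.63 (-1.85 in non-cycling cells) and the growth factor receptor gene Pdgfra at -0.14. The collagen genes Col1a2 and Col3a1 and the matrix gene Dcn reached 1 TPM in 0 of 47 cells, and Col1a1 in 1 high cell. The 8 fibroblast genes, Vim included, summed to 0.23 to 1935 TPM in high and 0.78 to 2738 TPM in low cells, and their part in the result was not tested.

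Mt3, a metallothionein gene, was at 0, 0 and 451 TPM in high cells and at 0, 136 and 4224 TPM in low cells, and differed by -4.01. Krt17, a keratin gene of stratified and injured epithelia, differed by -3.31, with medians of 0 and 96.9 TPM.

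Mt3, Krt17 and the Wnt ligand gene Wnt10a (-2.92) differed between the index sets. In cells with i7 indexes N704 to N707, Mt3 reached 10 TPM in 2 of 15 high and 11 of 14 low cells. In cells with N708 to N710 it did in 5 of 14 high and 1 of 4 low cells. Those high cells were a single library at 231 TPM and averaged pairs of libraries at 53.4, 187, 289 and 451 TPM. The part of the averaging in this was not tested. The differences in N708 to N710 were 1.07 for Mt3, 0.52 for Krt17 and 0.50 for Wnt10a, that is, opposite in sign. Without the low cell with 1316 genes, which left 3 low cells there, they were 0.40, -0.20 and 0.50. The median of all genes in N708 to N710 was 0.64 with that cell and 0.14 without it. These 3 genes were chosen for mention after their values were seen, since the naming rule asked for the same sign in both sets. Mt3 and Krt17 were both at 10 TPM or more in 9 of 18 low cells (26% to 74%, exact Clopper-Pearson) and 3 of 29 high cells (2.19% to 27.4%).

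Several transcriptional regulators and Wnt targets were also lower in the high cells. Sp5, a transcription factor gene and Wnt target, was at 0, 1.65 and 616 TPM in high cells and at 0, 51.3 and 360 TPM in low cells, and differed by -2.59 (-2.53 in non-cycling cells). The orphan nuclear receptor gene Nr4a2 differed by -2.37 and the homeobox gene Evx1 by -2.33. The proteoglycan gene Spock2 differed by -2.53, the kinesin light chain gene Klc3 by -2.33 and Leng1 by -2.70. Hist2h2aa2, a histone gene with near-identical copies, differed by -3.15 and is uncertain. Reads of Evx1, Klc3 and Leng1, as of Ceacam1, Duoxa2 and Il18 above, may also come from genes that overlap them.

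Of 17 Wnt targets past the filter, 13 were below 0 (median -0.62), beside 42% of all genes. Among them were the receptor antagonist gene Apcdd1 at -1.97, the Dickkopf family gene Dkk3 at -1.60 and the Wnt deacylase gene Notum at -1.55. The cyclin gene Ccnd1 was at 1.03, in the other direction. Without the low cell with 1316 genes, 14 of 17 were below 0, with a median of -0.76, beside 4575 of all 9166 genes below 0. In cells with i7 indexes N708 to N710 the median was 0.38, and -0.54 there without that cell, when 3 low cells were left. For all genes these medians were 0.64 and 0.14. Prox1, the gene of the series title, differed by -0.78 (9.03 and 25.3 TPM at the median), by -1.67 in N704 to N707 and by 1.95 in N708 to N710. Crypt stem cell genes had a median of 0.04. Ascl2, a transcription factor gene of stem cells, was at 1.61 and reached 1 TPM in 16 high and 5 low cells, while Sox9 was at -0.48. The cell cycle inhibitor gene Cdkn1c (p57) was at -1.52, and at -2.44 in non-cycling cells, where it was listed at 0 in all 11 high cells.

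Stress lists had medians below 0 in all cells. For all genes the median was 0.11, with 42% below 0. Of 18 genes of the unfolded protein and integrated stress response, 13 were below 0 (median -0.27, and 0.14 in non-cycling cells). The median was 0.20 with the i7 index as a block, and -0.50 with 16 of 18 below 0 without the low cell with 1316 genes. The largest difference in this list was that of Sdf2l1, an endoplasmic reticulum chaperone cofactor gene, at -2.14. Of 15 immediate early genes 11 were below 0 (median -0.22). Without the low cell with 1316 genes all 15 were, with a median of -0.54, beside 4575 of all 9166 genes below 0. Heat shock genes had a median of -0.07. In cells with i7 N708 to N710 the medians of the immediate early and heat shock lists were 0.35 and 0.45, beside 0.64 for all genes.

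Over the 50 cells, the genes whose levels followed Sprr2a3 most closely by Spearman's rho were Sprr2a1 (0.98), Sprr2b (0.92), Fbp2 (0.74), Lgals4 (0.73), Myo1a (0.70), Nlrp6 (0.64), Reg3b (0.63), Fabp5 (0.63), Ceacam1 (0.63) and 2200002D01Rik (0.62). Within the 29 high cells alone, rho with Sprr2a3 was 0.99 for Sprr2a1 and 0.79 for Sprr2b, 0.52 for Crip1, 0.45 for Rnf186, 0.42 for Reg3b, 0.32 for Reg3g, 0.28 for Myo1a, 0.24 for Lgals4 and 0.20 for Ceacam1. For Vim it was -0.42 (-0.52 over all cells), and for Krt17 it was 0.48, opposite in sign to -0.21 over all cells. Sprr2a1 shares sequence with Sprr2a3, so its value is not independent. Sprr2b shares a smaller part of its sequence with both. The cells share a mouse, an amplification method and TPM scaling to a fixed sum, and these values are descriptions without a test.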

How the data were processed

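RNA of single sorted tumor cells was measured in 56 libraries, identified by an i7 and an i5 index. The authors deposited TPM for 24410 Ensembl gene IDs, made, per the submitters' processing notes, with RSEM 1.2.31, Bowtie2 2.2.9 and bcl2fastq 1.8.4 on GRCm38.p4. The annotation release, settings and strandedness were not given in the sources used here, so overlapping genes cannot be told apart. Symbols and coordinates came from GENCODE M21 (GRCm38), which matched 24235 IDs, and promoters from RefSeq.

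Libraries with Pearson's r above 0.9 of log2(TPM + 1) were averaged. A gene entered at 1 TPM or more in 20% of cells. The difference was that of the group means of log2(TPM + 1), with a pseudocount of 1, which understates differences of low genes, and a difference of 2 was counted as past the threshold. As all cells are of 1 mouse, no test was made. Shares have exact Clopper-Pearson intervals at 95%. The precision of single values is unknown, because TPM keep no depth. No doublet caller was run on cells sorted singly.

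Named genes were the 12 with the largest and the 12 with the lowest difference of the same sign in both i7 sets and in non-cycling cells (leaving out predicted, Rik, Mir and pseudogene entries), the 10 closest to Sprr2a3 by rho, and up to 4 members of each of 38 gene lists, with others of note for their counts. The members and lists were chosen with earlier results of these data known. The difference step was tried on the deposited values, shuffled among cells within each gene, with large differences planted in widely detected genes. That checks the computation only. Figures were drawn with matplotlib 3.10.9, and values computed in Python 3.11.15 with pandas 2.3.3, numpy 2.4.6 and SciPy 1.17.1. Alternatives were other pseudocounts, filters, thresholds, group summaries, sets of cells and scalings. A gene that the rule selects is not reported here.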

Additional observations from a re-analysis of the deposited data

How the results depend on the processing

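The counts of genes past a difference of 2 (128 higher and 31 lower) moved with the scale and the cells used. Higher genes numbered 592 with a pseudocount of 0.1, 11 with 10, 608 with group medians, 193 with low cells below 1 TPM, 1086 in cells with i7 indexes N708 to N710 (584 there with 3000 or more genes), 346 in cells with i5 indexes N502 to N505, 201 with TPM rescaled without ribosomal protein genes and Gm10925, and 203 with the i7 index as a block. Lower genes numbered 145 and 5 with the pseudocounts, 197 with medians, 15 with a filter of 50% of cells, 97 in non-cycling cells (166 with 3000 or more genes), 53 without cells under 3000 genes, 52 with 5000 or more genes, 125 and 82 in the 2 i7 sets (288 in N708 to N710 with 3000 or more genes), 119 and 100 in the 2 i5 sets, and 52 with the i7 block. Leaving out each i5 index gave 117 to 213 higher and 32 to 58 lower genes, with 213 higher without N506, and 58, 50 and 48 lower without N503, N517 and N506. In 1262 of 1288 comparisons with alternatives, differences of 46 named genes moved by less than 1 SD over cells. Comparisons in which a difference of 2 or more turned its sign, 6 in number, were counted apart, so the 1262 hold none by definition. The SD over cells is wide, for example 4.39 for Hist1h2ap, 3.69 for Mt3 and 3.43 for Krt17. The count of 1262 therefore does not show that differences kept their size or sign. Over the alternatives, Rnf186 ranged from 0.19 to 6.77 and Plac8 from 0.17 to 6.22. In N708 to N710 the sign turned for 5 of 46 genes and 10 of 37 list medians. The 12 highest and 12 lowest genes of the naming rule are among the 46 and could not turn there. That rule asked for the same sign in this set, so 5 of 46 understates how often signs turn. In cells of N708 to N710 with 3000 or more genes the sign turned for 5 genes and 7 list medians. The median of all genes was 0.64 and 0.14 in these sets, against 0.11 in all cells, so values there are to be read beside it. Among genes past 2 and list medians past 0.5, signs turned in N708 to N710 for Mt3 (1.07), Krt17 (0.52), Wnt10a (0.50) and the Wnt target median (0.38), and in its cells with 3000 or more genes for Mt3 (0.40), Wnt10a (0.50), Hist1h2ap (-0.54) and the ribosome biogenesis median (-0.16). The tuft median turned to -0.11 with group medians. The smaller differences of Prox1 (1.95) and Apcdd1 (0.99) and the medians of the tight junction (1.10), matrix protease (1.25) and interferon (0.91) lists also turned in N708 to N710. The cause was not tested. The block, the limits on genes per cell beyond 3000 and the sets that join 2 limits were chosen after seeing the data. Depth is unknown, so values near 0 cannot be told from missed transcripts. No paired analysis was possible because the labels give 1 group of cells and no replicate numbers.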
